A study of Bos taurus with 10 samples.

Results

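The tripartite motif (TRIM) genes were examined in bovine (Bos taurus) oviductal organoids kept at 42 °C (heat stress, HS) or at 37 °C (thermoneutral). They were all the rows of the deposited gene table whose symbol begins with TRIM and a digit, 56 of 26,804 genes, and the rule used no measured value. RNA of whole organoids was sequenced in 10 libraries, 5 per temperature, with the letters A to E. The HS organoids spent the last 24 h of culture at 42 °C and the thermoneutral organoids spent it at 37 °C, after both had been primed for 24 h at 37 °C. Both groups were grown from epithelial cells scraped from slaughterhouse oviducts in diestrus, with 2 animals pooled per replicate and the same oviducts at both temperatures, and both were moved into a synthetic matrix before the exposure. The shared medium held EGF, FGF-10, Noggin, and inhibitors of the TGF-beta receptor, p38 and ROCK kinases. As a model they come from the scraped lining of the oviduct and not from its whole wall.

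TRIM proteins are mostly ubiquitin ligases. A RING domain near the start of the protein binds the ubiquitin-carrying enzyme (E2), 1 or 2 B-boxes and a coiled coil follow and let the proteins pair, and the C-terminal part, often a SPRY domain, chooses the target. Members are known for sensing viruses and tuning interferon and NF-kB signalling, for selective autophagy, for control of transcription and for the quality control of proteins, and many of these roles come from work on human and mouse cells.

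The values are TPM (transcript levels as a share of the library), which are corrected for gene length, so that levels can be set beside each other between genes. HS B stood apart from all other libraries on the first 2 principal components, and was left out of the comparison because the study set aside 1 HS replicate and its clustering plot does not hold this one. The comparison therefore rests on 4 HS and 5 thermoneutral libraries, and HS A lay between the groups on the first component (2.17, against 51.2 to 55.9 in HS C, D and E and -49.5 to -43.5 in the thermoneutral libraries). All 6 heat shock genes checked were called higher in HS, which matches the temperature labels. All 6 epithelial markers were expressed, and past the adjusted p 3 were higher and 3 lower in HS, with a summed level of 6312 to 9503 TPM in HS and 10250 to 13350 TPM in thermoneutral organoids. Of 5 secretory markers 4 were expressed, with SPP1 called higher and MSLN called lower and a summed level of 3600 to 4370 TPM in HS and 4824 to 8554 TPM in thermoneutral organoids, while the oviductal glycoprotein OVGP1 stayed below 1 TPM in every library. Of 8 leukocyte markers, 7 stayed below 1 TPM in every library and CD68, a gene of lysosomes too, did not, and the summed level was 1.82 to 9.21 TPM in HS and 0.606 to 1.45 TPM in thermoneutral organoids. Of 7 ciliated markers tested, 6 were called lower in HS, and their summed level was 24.03 to 43.5 TPM in HS and 46.7 to 141 TPM in thermoneutral organoids. Of 8 fibroblast markers 5 stayed below 1 TPM in every library, among them the collagen genes COL1A1, COL1A2 and COL3A1. The 2 tested, VIM and THY1, were called lower in HS and held most of the summed level. That sum was 31.2 to 182 TPM in HS and 274 to 570 TPM in thermoneutral organoids. All 4 mesothelial markers tested were lower in HS past the adjusted p, 2 of them called, with a summed level of 328 to 869 TPM in HS and 917 to 1141 TPM in thermoneutral organoids. The part of these markers in the TRIM results was not tested, and in bulk RNA fewer cells of a type cannot be told apart from less RNA per cell.

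Most of the measured family was transcribed at low to moderate levels, and TRIM8 and TRIM28 stood well above the rest. Of the 56 genes, 12 were listed at 0 in all 10 libraries, 8 were above 0 but never passed 0.630 TPM, and 36 were tested because they reached 1 TPM in 4 or more of the 9 libraries. Of these 36, 32 reached 1 TPM in all 9 libraries. TRIM7, a ligase also known for binding glycogenin, reached 1 TPM in no thermoneutral library and so passed only through HS. In thermoneutral organoids 2 genes averaged 100 TPM or more, 19 averaged 10 to 100 TPM, 14 averaged 1 to 10 TPM and 1 averaged less than 1 TPM.

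The genes at or near 0 included members known mainly from other tissues. The muscle RING finger genes TRIM54 and TRIM63, which tag sarcomere proteins in striated muscle, were listed at 0 in every library, and the related TRIM55 did not exceed 0.414 TPM. Of 7 striated muscle markers, 5 stayed below 1 TPM in every library and 3 of those were at 0. The others were MB, which reached 1.32 TPM at most, and CKM. CKM had 2.54 to 5.08 TPM in the thermoneutral libraries and was called lower in HS (log2 difference -1.52, adjusted p = 0.000282). TRIM71, an NHL-domain protein of early embryos and germ cells, TRIM58, a ligase of maturing red cells, and TRIM50, known from gastric parietal cells, were also at 0. TRIM9, TRIM46 and TRIM67, of the microtubule-linked COS class and best known from neurons, had highest values of 0.215, 0.630 and 0 TPM. TRIM72, the membrane repair protein of muscle, reached 0.0628 TPM at most. TRIM10, TRIM15, TRIM31 and TRIM40, which lie side by side in the RefSeq gene order of the ARS-UCD2.0 assembly, were all untested, and the highest value among them was 0.176 TPM, in TRIM15.

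**Figure D1:**
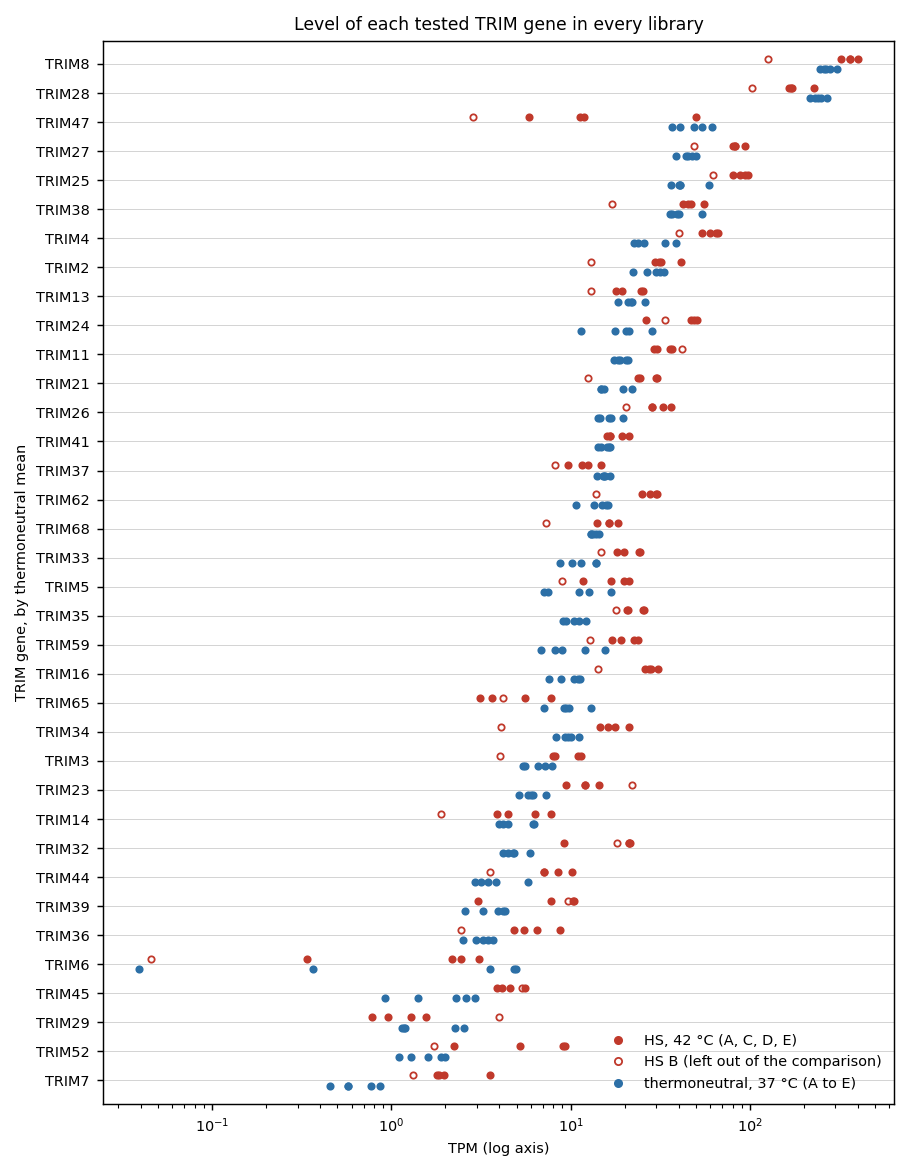
Level of the 36 tested TRIM genes in TPM on a log axis, 1 point per library, with HS libraries drawn above the thermoneutral libraries of the same gene, HS B as an open point, and genes ordered by thermoneutral mean. TRIM8 and TRIM28 stand above 100 TPM in both groups, TRIM47 spreads from 5.83 to 50.3 TPM among the 4 HS libraries, and TRIM6 spreads widely in both groups.

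TRIM8 and TRIM28 led the family at both temperatures. TRIM8, a ligase that acts on NF-kB and STAT signalling, had 403, 360, 323 and 363 TPM in HS A, C, D and E, against 265, 247, 279, 307 and 259 TPM in thermoneutral A to E. Every HS library was above every thermoneutral library, though HS D exceeded thermoneutral D only narrowly. The difference on the log2(TPM + 1) scale was 0.41 (SE 0.10, adjusted p = 0.00322), above the median of all genes tested, 0.30, by little. HS B had 127 TPM of TRIM8, lower than any other library. The difference of TRIM8 was 0.07 (adjusted p = 0.561) after median-ratio scaling and 0.11 (adjusted p = 0.749) with all 10 libraries. With HS B in and HS A out it was -0.00066, and after quantile normalization it was 0.41 (adjusted p = 0.00407). Its size and its passing of the adjusted p thus depended on these choices, and its sign turned only with HS B in and HS A out. TRIM28 (KAP1), the corepressor that KRAB zinc finger proteins bring to DNA to silence transposons, had 229, 165, 172 and 170 TPM in HS A, C, D and E, against 216, 232, 249, 268 and 239 TPM in thermoneutral A to E. HS C, D and E lay below all thermoneutral libraries and HS A lay within their range. TRIM28 fell by 0.40 on the log2 scale (SE 0.11, adjusted p = 0.0103), short of the size of 1 needed for a call.

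The summed level of all TRIM rows was 1397, 1325, 1291 and 1318 TPM in HS A, C, D and E, against 946, 931, 1031, 1133 and 1038 TPM in thermoneutral A to E. The share of that sum held by TRIM8 and TRIM28 together was 38.3% to 45.2% in HS and 48.0% to 51.4% in thermoneutral organoids. HS B went the other way in its sum, 732 TPM, and its share was 31.4%.

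The test of the whole table asked which TRIM genes differed between 42 °C and 37 °C. The word called is used for genes whose adjusted p was below 0.05 and whose log2 difference was at least 1 in size, up or down. Of the 36 tested, 7 (19.4%) were called higher in HS, namely TRIM32, TRIM16, TRIM52, TRIM24, TRIM4, TRIM35 and TRIM25, against 15.8% of all 12,149 genes tested. One gene, TRIM47 (2.78%), was called lower, against 7.14% of all genes. At an adjusted p below 0.05 and any size, 24 were higher (66.7%, against 45.1% of all genes) and 4 were lower (11.1%, against 18.1%). The share called higher was thus near that of the table, and the share higher at any size was above it. All 4 HS libraries lay above all 5 thermoneutral libraries in 21 members (58.3%, against 36.6% of all genes), and lay below them in none (12.3% of all genes). TRIM7, whose passing of the filter rested on its HS values, is among these 24 and 21, and without it they were 23 and 20 of 35. At an unadjusted p below 0.05, which is used beside counts of 0, 47.3% of all genes were higher and 19.6% lower.

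The median log2 difference was 0.79 over the 36 members and 0.30 over all genes tested. TPM are shares of a library, and scaling the libraries by median ratios moved the median of all genes to -0.01 and that of the members to 0.49. The table then held 922 higher and 1435 lower calls in place of 1915 and 867, and the members 3 higher and 2 lower. After quantile normalization it held 981 higher and 1253 lower calls, and the members again 3 and 2. At any size, 19 members were higher and 4 lower past the adjusted p after median-ratio scaling, against 28.8% of all genes higher and 29.8% lower. Relative to the median gene, the difference was 1.35 for TRIM32, 1.14 for TRIM16, 1.10 for TRIM52, 0.79 for TRIM24, 0.78 for TRIM4, 0.77 for TRIM35, 0.75 for TRIM25 and -1.97 for TRIM47.

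**Figure D2:**
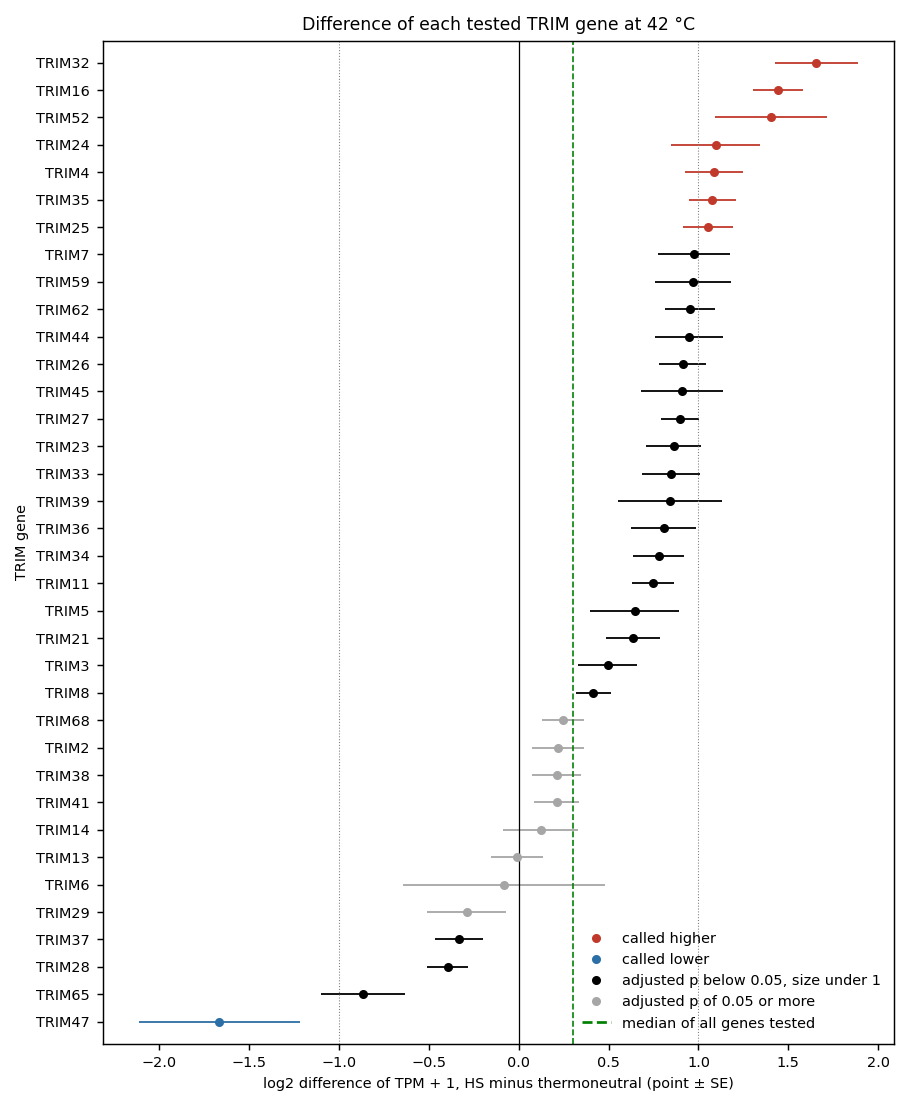
Log2 difference of TPM + 1, HS minus thermoneutral, for the 36 tested TRIM genes (points, with bars of 1 SE), ordered by size, with dotted lines at the size needed for a call and a dashed line at 0.30, the median of all genes tested. The 7 genes called higher lie between 1.05 and 1.66, 17 more passed the adjusted p at a smaller size, and TRIM47 stands alone at -1.67.

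TRIM32 and TRIM16 had the largest differences among the members called higher, and kept their calls under all 19 alternatives run. TRIM32 (ENSBTAG00000017155), a ligase with NHL repeats that is mutated in a human limb-girdle muscular dystrophy, had 9.17, 21.2, 21.1 and 21.5 TPM in HS A, C, D and E, against 4.22, 5.92, 4.82, 4.78 and 4.46 TPM in thermoneutral A to E. HS C, D and E were nearly equal, HS A was less than midway to them, and all 4 were above the thermoneutral libraries. The mean was 18.3 ± 6.06 TPM in HS (SD, n = 4) and 4.84 ± 0.651 TPM in thermoneutral organoids (n = 5), and the log2 difference was 1.66 (SE 0.23, adjusted p = 0.00014). In RefSeq (ARS-UCD2.0), TRIM32 overlaps ASTN2, a gene for a neuronal membrane protein. ASTN2 differed in the opposite direction, at 1.203 ± 0.448 TPM in HS and 5.04 ± 1.70 TPM in thermoneutral organoids (log2 difference -1.44, adjusted p = 0.000317). The library kit does not mark strand, so that reads of overlapping genes could be counted to either. The same limit holds for TRIM24 (which overlaps SVOPL), TRIM13, TRIM14 and TRIM37, for 5 members in all overlap another protein-coding gene.

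TRIM16 (ENSBTAG00000002605), which lacks a RING domain and is known for working with galectin-3 in the clearance of damaged lysosomes, had 28.1, 30.9, 27.4 and 26.1 TPM in HS A, C, D and E, against 7.62, 10.9, 8.78, 11.2 and 10.4 TPM in thermoneutral A to E. The groups were wide apart and HS A stood with the other HS libraries. The log2 difference was 1.44 (SE 0.14, adjusted p = 2.33e-05), the smallest p in the family. HS B, at 14.2 TPM, was above every thermoneutral library and below the other HS libraries. Of the 12 genes listed as TRIM16's partners in selective autophagy and lysosome repair, all were tested. By limma 2 were called higher and none lower, against 15.8% and 7.14% of all genes. At an unadjusted p below 0.05, 7 were higher and 1 was lower, against 47.3% and 19.6% of all genes. The median of the list was 0.34, against 0.30 over all genes. The genes called higher were the autophagosome gene ATG16L1 (1.202, adjusted p = 0.000175) and the galectin gene LGALS8 (1.14, adjusted p = 0.000383). LGALS3, the gene of galectin-3, was 511 ± 51.7 TPM in HS and 808 ± 112 TPM in thermoneutral organoids, and fell by 0.65 on the log2 scale (adjusted p = 0.000691), short of a call.

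TRIM24 (ENSBTAG00000002431) belongs with TRIM28, TRIM33 and TRIM66 to the class that ends in a PHD finger and a bromodomain, which read histone marks. It had 26.5, 48.8, 50.4 and 46.9 TPM in HS A, C, D and E, against 11.5, 17.8, 21.2, 28.3 and 20.3 TPM in thermoneutral A to E. HS A lay below thermoneutral D, so that the groups overlapped, but each HS library exceeded the thermoneutral library of its own letter. The log2 difference was 1.10 (SE 0.25, adjusted p = 0.00255), and without thermoneutral A it was 0.92 and no longer called. TRIM33, which acts on SMAD proteins of the TGF-beta pathway, averaged 21.6 ± 3.11 TPM in HS and 11.6 ± 2.28 TPM in thermoneutral organoids (0.85, adjusted p = 0.000882), while TRIM66 was below the filter. Within this class of 3 tested genes, TRIM24 and TRIM33 were thus higher and TRIM28 lower. Of 16 tested partners of TRIM28 in gene silencing, 2 were called higher and none lower by limma, against 15.8% and 7.14% of all genes. At an unadjusted p below 0.05, 10 were higher and 2 lower, against 47.3% and 19.6% of all genes. The median of these partners was 0.44. The called genes were MORC2, an ATPase of the HUSH silencing complex (1.84, adjusted p = 6.53e-06), and CBX5, the heterochromatin protein HP1 alpha (1.13, adjusted p = 2.84e-05). The histone methyltransferase gene SETDB1 differed by 0.58 (adjusted p = 0.00164) and the deacetylase gene HDAC1 by -0.80 (adjusted p = 0.00209), both under the size of a call.

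TRIM25, TRIM4 and TRIM35 are ligases with a SPRY domain. TRIM25 (ENSBTAG00000009948), known for ubiquitinating the RNA sensor RIG-I, had 88.5, 94.3, 97.2 and 80.4 TPM in HS A, C, D and E, against 40.3, 36.3, 40.5, 59.4 and 40.9 TPM in thermoneutral A to E. The groups did not overlap and thermoneutral D was the highest of its group. The log2 difference was 1.05 (SE 0.14, adjusted p = 0.000103), and its call was close to the limit, for with the letter as a replicate block it was 0.99 (adjusted p = 0.000712) and not called. TRIM4 (ENSBTAG00000050135), which also acts on RIG-I in human cells, had 54.3, 66.6, 64.3 and 59.7 TPM in HS A, C, D and E, against 22.7, 23.8, 25.6, 33.4 and 38.8 TPM in thermoneutral A to E. Again no library of one group reached the other (log2 difference 1.09, SE 0.16, adjusted p = 0.000184). TRIM35 (ENSBTAG00000009958), linked to IRF7 turnover, had 20.9, 25.3, 25.7 and 20.6 TPM in HS A, C, D and E, against 10.4, 9.38, 9.06, 11.1 and 12.2 TPM in thermoneutral A to E. The groups were apart here too (1.08, SE 0.13, adjusted p = 7.2e-05). The calls of TRIM24, TRIM4, TRIM35 and TRIM25 ended under both scalings between libraries, at log2 differences of 0.71 to 0.86, with adjusted p still at or below 0.0133.

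TRIM52 (ENSBTAG00000019651), a short member with no C-terminal domain, had 2.23, 9.32, 9.02 and 5.19 TPM in HS A, C, D and E, against 1.59, 1.11, 1.88, 1.29 and 2.002 TPM in thermoneutral A to E. The HS libraries were spread widely, and HS A was barely above the highest thermoneutral library. The log2 difference was 1.40 (SE 0.31, adjusted p = 0.00235), and without HS A it was 1.76. Its means, 6.44 ± 3.38 TPM in HS and 1.57 ± 0.380 TPM in thermoneutral organoids, are low, and the log2(TPM + 1) scale understates changes at such levels. HS B, at 1.72 TPM, lay within the thermoneutral range.

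TRIM47 (ENSBTAG00000018920), a SPRY ligase, had 50.3, 11.2, 5.83 and 11.9 TPM in HS A, C, D and E, against 61.8, 41.0, 54.2, 49.0 and 36.8 TPM in thermoneutral A to E. HS C, D and E were far below every thermoneutral library, and HS A lay within the thermoneutral range. The mean was 19.8 ± 20.5 TPM in HS and 48.5 ± 10.01 TPM in thermoneutral organoids, and the log2 difference was -1.67 (SE 0.45, adjusted p = 0.00693). Without HS A it was -2.25 (adjusted p = 1.24e-05), and with HS B, at 2.84 TPM, in the place of HS A it was -2.60.

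**Figure D3:**
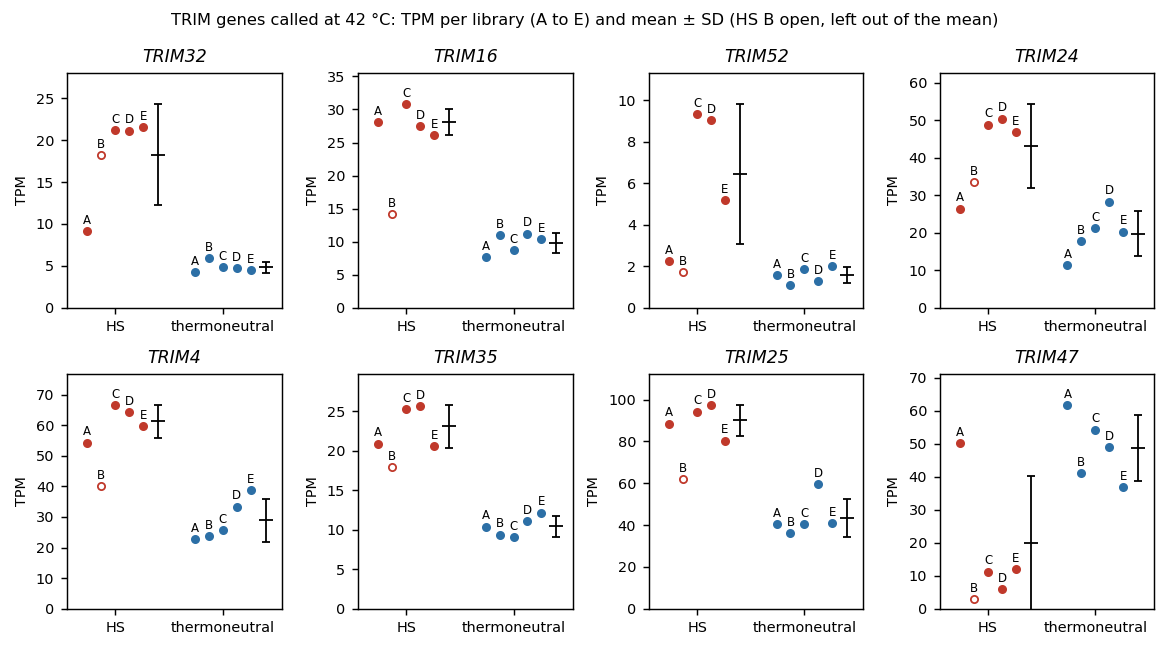
TPM of the 8 called TRIM genes, with HS on the left and thermoneutral on the right of each panel, 1 lettered point per library, HS B open, and a black mark with bars for the mean ± SD (HS B left out, and the lower bar of TRIM47 in HS cut at 0). HS A stands near the other HS libraries in TRIM16, TRIM25 and TRIM35 and near the thermoneutral libraries in TRIM47 and TRIM52.

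The position of HS A differed between the called genes. Taken as the way between the thermoneutral mean and the mean of HS C, D and E, on the log2 scale, HS A was at 100% for TRIM16, 97.2% for TRIM25, 84.4% for TRIM35, 80.7% for TRIM4, 41.7% for TRIM32, 34.6% for TRIM24, 19.5% for TRIM52 and -3.23% for TRIM47. Over all called genes of the table the median position of HS A was 61.1% (quartiles 43.6% and 79.7%). TRIM16, TRIM25, TRIM35 and TRIM4 were thus above the upper quartile, and the other 4 below the lower one.

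The next gene to TRIM47 in the RefSeq order is TRIM65, a ligase of the RNA sensor MDA5, and it moved the same way. TRIM65 had 7.77, 3.12, 5.59 and 3.65 TPM in HS A, C, D and E, against 9.20, 7.09, 9.45, 12.9 and 9.75 TPM in thermoneutral A to E. Only HS A was within the thermoneutral range. TRIM65 fell by 0.87 on the log2 scale (SE 0.23, adjusted p = 0.00719), short of a call, and without HS A the difference was -1.07 (adjusted p = 0.000865), which passed. The genes on either side of the pair did not share this size of change. MRPL38, a mitochondrial ribosomal protein gene beside TRIM65, fell by 0.35 (adjusted p = 0.0144), and WBP2, a transcriptional coactivator gene beside TRIM47, differed by 0.02 (adjusted p = 0.887).

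TRIM7, TRIM41, RACK1 and TRIM52 are also neighbours in that order. TRIM52 was called higher in HS. TRIM7 had 1.79, 1.85, 1.97 and 3.54 TPM in HS A, C, D and E, against 0.572, 0.455, 0.768, 0.571 and 0.861 TPM in thermoneutral A to E. The log2 difference was 0.97 (SE 0.20), and since TRIM7 was tested only through its HS values, its test is not read as support. TRIM41, between them, averaged 18.3 ± 2.51 TPM in HS and 15.6 ± 0.961 TPM in thermoneutral organoids (0.21, adjusted p = 0.156). RACK1, a ribosome scaffold gene, had a difference of -0.14 (adjusted p = 0.163). Neighbouring members thus had differences of unlike size here.

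Among the 17 members that were higher past the adjusted p at a smaller size, the 6 with the smallest p were TRIM27, TRIM26, TRIM62, TRIM11, TRIM23 and TRIM34. TRIM27, a ligase that acts on the WASH complex in endosome recycling, had 82.1, 82.3, 94.2 and 80.1 TPM in HS A, C, D and E, against 45.3, 38.5, 43.7, 50.0 and 47.7 TPM in thermoneutral A to E (log2 difference 0.90, SE 0.10, adjusted p = 5.36e-05). TRIM26, a ligase of the interferon pathway, had 28.5, 32.7, 28.5 and 36.3 TPM in HS, against 16.7, 14.6, 16.3, 14.3 and 19.6 TPM in thermoneutral organoids (0.91, SE 0.13, adjusted p = 0.00015). In both genes the lowest HS library was well above the highest thermoneutral one. TRIM62, known for a part in the polarity of mammary epithelium, had 30.3, 30.1, 24.9 and 27.8 TPM in HS, against 13.5, 10.6, 15.0, 16.1 and 15.8 TPM in thermoneutral organoids (0.95, SE 0.14, adjusted p = 0.000177). TRIM11, a ligase with a role in clearing misfolded proteins, had 30.2, 35.9, 29.2 and 36.9 TPM in HS, against 20.4, 17.3, 18.3, 21.01 and 18.9 TPM in thermoneutral organoids (0.75, SE 0.12, adjusted p = 0.000253). These groups were apart as well, and HS B had the highest TRIM11 of all libraries, 41.6 TPM. TRIM23, which carries an ARF GTPase domain and acts in autophagy, had 9.38, 12.01, 14.4 and 11.999 TPM in HS, against 5.16, 6.03, 7.26, 5.80 and 6.14 TPM in thermoneutral organoids (0.86, SE 0.15, adjusted p = 0.000535). HS B was again the highest for TRIM23, at 21.9 TPM. It lay within the thermoneutral range for TRIM27 (48.6 TPM) and TRIM62 (13.8 TPM). For TRIM26 it was just above that range (20.4 TPM), and for TRIM34 it was below it (4.07 TPM).

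The remaining 11 of these, TRIM3, TRIM5, TRIM7, TRIM8, TRIM21, TRIM33, TRIM36, TRIM39, TRIM44, TRIM45 and TRIM59, had log2 differences of 0.41 to 0.97. After median-ratio scaling TRIM3, TRIM5, TRIM8, TRIM21 and TRIM39 no longer passed the adjusted p. TRIM21, the cytosolic antibody receptor, averaged 27.2 ± 3.62 TPM in HS and 17.2 ± 3.27 TPM in thermoneutral organoids (0.64, adjusted p = 0.00353). TRIM45, a ligase with a filamin domain, averaged 4.54 ± 0.728 TPM in HS and 2.03 ± 0.840 TPM in thermoneutral organoids (0.91, adjusted p = 0.00465), and with the replicate block its difference was 1.01 (adjusted p = 0.00486), which made the call. TRIM39, an inhibitor of the anaphase-promoting complex, averaged 7.90 ± 3.47 TPM in HS and 3.64 ± 0.730 TPM in thermoneutral organoids (0.84, adjusted p = 0.0241), and without HS A, at 3.05 TPM, the difference was 1.18 and called. TRIM37, of the peroxisome and centrosome, was 12.1 ± 2.11 TPM in HS and 15.3 ± 0.906 TPM in thermoneutral organoids (-0.33, adjusted p = 0.0492), and the replicate block moved its adjusted p to 0.0884.

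For 8 members the adjusted p was 0.05 or more. TRIM38, which limits Toll-like receptor signalling and is among the 6 most abundant members, had 45.05, 47.1, 42.6 and 55.7 TPM in HS A, C, D and E, against 39.2, 35.9, 40.3, 36.9 and 53.8 TPM in thermoneutral A to E. The groups overlapped through thermoneutral E (log2 difference 0.21, SE 0.14, adjusted p = 0.192). TRIM2, an NHL ligase studied in neurons, TRIM13, a ligase anchored in the endoplasmic reticulum, and TRIM68, a coactivator of the androgen receptor, had differences of 0.22, -0.01 and 0.24. TRIM14, a RING-less adaptor of MAVS, had 0.12, TRIM29, a RING-less protein of stratified epithelia, had -0.29, TRIM41 had 0.21 and TRIM6 had -0.08. The scalings turned the sign of TRIM2, TRIM14, TRIM38, TRIM41 and TRIM68, so that no direction can be given for them. TRIM13 was at -0.34 (adjusted p = 0.0570) after median-ratio scaling and at -0.37 (adjusted p = 0.0441) after quantile normalization.

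TRIM6, which makes free ubiquitin chains that activate the kinase IKBKE, followed the letter more than the temperature. It had 0.338, 2.18, 3.10 and 2.46 TPM in HS A, C, D and E, against 0.0388, 0.363, 3.55, 4.97 and 4.85 TPM in thermoneutral A to E, and HS B had 0.0459 TPM. The libraries with letters A and B were below 0.4 TPM at both temperatures and those with C, D and E were above 2 TPM at both. In the fit with the letter as a block, the letter term of TRIM6 had an F of 15.6 and an adjusted p of 0.161, rank 66 of 12,149 genes, and 22 genes of the table (0.181%) but none of the 36 members passed, of which 3 had an unadjusted p below 0.05. TRIM6 was picked out after its values had been seen. TRIM5, a restriction factor of retroviral capsids, and its relative TRIM34 lie close to TRIM6 in the RefSeq order, with unnamed genes and olfactory receptor genes between them. TRIM34 had 17.6, 16.1, 21.3 and 14.6 TPM in HS A, C, D and E, against 9.27, 9.60, 11.1, 10.1 and 8.26 TPM in thermoneutral A to E (0.78, SE 0.14, adjusted p = 0.000643), and HS B, at 4.07 TPM, was the lowest, so that with all 10 libraries the adjusted p was 0.336. TRIM5 averaged 17.4 ± 4.17 TPM in HS and 11.02 ± 3.97 TPM in thermoneutral organoids (0.64, adjusted p = 0.0393), and after median-ratio scaling its adjusted p was 0.266. Reads may be shared among these related genes, and their values are uncertain to that extent.

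**Figure D4:**
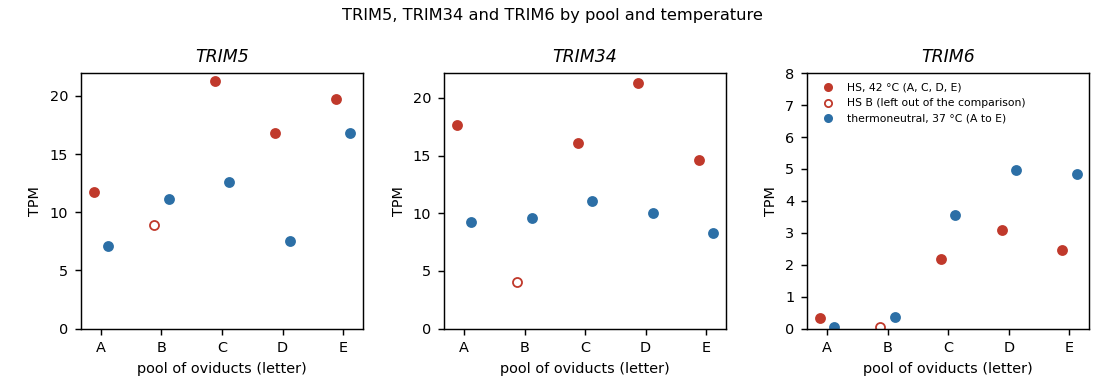
TPM of TRIM5, TRIM34 and TRIM6 by letter (A to E), which was taken to mark the pool of oviducts though the labels do not state it. The HS library of each letter is on the left and the thermoneutral library on the right, with HS B open. TRIM34 was higher in HS for letters A, C, D and E, while TRIM6 was below 0.4 TPM for A and B and above 2 TPM for C, D and E at both temperatures.

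Grouped by fixed lists, the 18 tested members listed as SPRY held 3 called higher (TRIM4, TRIM25, TRIM35) and 1 called lower (TRIM47), with a median of 0.76. That list did not hold TRIM16 or TRIM14, which were in no list of a C-terminal class, so it is not a full count of SPRY members. The NHL class of 3 held TRIM32 as its 1 call, with a median of 0.49. The list of 4 tested RING-less members, which is not a C-terminal class, held TRIM16 as its 1 call, with a median of 0.53. Of 10 tested members listed as antiviral, 1 was called higher, TRIM25, and none lower by limma, with a median of 0.64. At an unadjusted p below 0.05, 6 of them were higher and 1 was lower, TRIM65, against 47.3% and 19.6% of all genes. Of 6 tested members listed for autophagy and lysosome damage, 1 was called higher, TRIM16, and none lower by limma (TRIM28 and TRIM65, 2 members, were lower at an unadjusted p below 0.05), with a median of 0.31. Each of these counts rests on few genes, and they stand beside 15.8% called higher and 7.14% called lower, and a median of 0.30, over all genes tested.

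Relatives of the family under other names were measured too. Of 6 tested, 2 were called higher and none lower by limma, against 15.8% and 7.14% of all genes. At an unadjusted p below 0.05, 3 were higher and 1 was lower, against 47.3% and 19.6% of all genes. Their median was 0.58, and the counts rest on few genes. MID1, the microtubule-bound ligase of the COS class, had 33.7, 21.1, 26.2 and 20.5 TPM in HS A, C, D and E, against 7.69, 7.92, 9.81, 10.9 and 8.35 TPM in thermoneutral A to E. The groups were wide apart (1.39, SE 0.17, adjusted p = 6.76e-05), but HS B, at 3.81 TPM, was the lowest library, and with all 10 libraries the difference was 0.91 (adjusted p = 0.101) and not called. RNF207 was the other (1.03, adjusted p = 0.000198). PML, the scaffold of nuclear bodies, averaged 80.0 ± 6.33 TPM in HS and 46.9 ± 8.31 TPM in thermoneutral organoids (0.77, adjusted p = 0.000449), under the size of a call.

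Of 16 tested genes of the RIG-I, MDA5 and MAVS pathway, which several TRIM ligases act on, 3 were called higher and 1 lower, with a median of 0.51, shares near the 15.8% and 7.14% of all genes. MAVS, the mitochondrial adaptor of both sensors, averaged 38.6 ± 1.05 TPM in HS and 15.6 ± 1.76 TPM in thermoneutral organoids (1.26, adjusted p = 1.98e-05). IRF7, the interferon regulatory factor, had 123, 290, 257 and 353 TPM in HS A, C, D and E, against 97.0, 74.9, 85.2, 81.1 and 79.5 TPM in thermoneutral A to E (1.51, adjusted p = 0.000323), with HS A nearest to the thermoneutral libraries. ZC3HAV1, an antiviral zinc finger gene whose product has TRIM25 as a cofactor, was the third (1.01, adjusted p = 0.000258). Its call was at the limit and was lost with the replicate block (0.93, adjusted p = 0.0013), with all 10 libraries (0.97) and under both scalings. The call was also lost without HS A (0.99), HS E (0.96) or thermoneutral A (0.95), B (0.93, the same difference as with the block) or C (0.98). IKBKE had 15.9, 4.34, 3.30 and 4.67 TPM in HS A, C, D and E, against 29.9, 27.2, 33.2, 43.3 and 36.4 TPM in thermoneutral A to E. All HS libraries were below all thermoneutral ones (-2.34, SE 0.34, adjusted p = 0.000157).

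The E2 enzymes pass ubiquitin to TRIM ligases, and several steps of NF-kB activation are known targets of the family. Of 15 tested E2 genes, none was called higher by limma, though 8 were higher and 4 lower at an unadjusted p below 0.05 (47.3% and 19.6% of all genes), and 1 was called lower, with a median of 0.28. It was UBE2E2, at 8.24 ± 4.68 TPM in HS and 27.4 ± 5.21 TPM in thermoneutral organoids (-1.72, adjusted p = 0.000307). Of 13 tested genes of NF-kB activation, 1 was called higher, the kinase adaptor TAB3 (1.24, adjusted p = 0.000165), and none lower by limma, while 9 were higher and 1 lower at an unadjusted p below 0.05. These list counts are to be read against 15.8% of all genes called higher and 7.14% called lower. The median of that list was 0.55. Of the 10 listed genes called higher outside the TRIM rows, MID1, MORC2 and IRF7 were still called under both scalings between libraries, while RNF207 was also lost without HS C, HS D or thermoneutral D, and MAVS and CBX5 with all 10 libraries. Both genes called lower were still called under the scalings, namely IKBKE and UBE2E2.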

How the data were processed

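RNA-seq of 10 libraries of bovine oviductal organoids was used, 5 per temperature. The authors sequenced unstranded libraries in pairs, mapped the trimmed reads to ARS-UCD1.2 in CLC Genomics Workbench and deposited gene values in TPM. Besides CLC, bcl2fastq (which wrote the reads of each library), Bowtie2 2.2.2 and DESeq2 stand in the submitters' processing notes. The step of Bowtie2 and DESeq2 in making the TPM is not given in the sources used here. Each deposited TPM column sums to 1000000, so that the values hold no read numbers, and no counting interval was computed from them.

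Genes that reached 1 TPM in 4 or more of 9 libraries (HS B left out) were tested as log2(TPM + 1) with limma 3.58.1 in R 4.3.3 (eBayes with trend, two-sided), with Benjamini-Hochberg adjustment over all 12,149 genes. Differences are HS minus thermoneutral, and n is 4 and 5. The procedure was tested on simulated data. Python 3.11.15 was used for tables.

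The TRIM rows and the lists were chosen with earlier results of these data known. Values per library are given for called members, the 6 most abundant, the 6 with the smallest p among smaller differences, and members named for their neighbours or letters after their values were seen. Up to 4 called genes per list are named. The study split the same oviducts between both temperatures, and a shared letter was taken to mark the same oviducts, which the labels do not state. Deviations of same-letter libraries correlated at 0.125 (A), 0.238 (B), 0.369 (C), 0.273 (D) and 0.211 (E). Gene order and overlaps came from the gene positions of RefSeq (ARS-UCD2.0), in which 55 of the 56 symbols matched, and the positions themselves are not given here. Domain and promoter sequences were not used here. Alternatives covered the pseudocount, filter, scaling, HS B, replicate block, trend and each library left out. Having HS B in with HS A out was chosen after seeing the data.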

Additional observations from a re-analysis of the deposited data

Results flagged for a closer look

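In 8 of 72 groups of values, 1 library stood far from the others of its group, by the gap to its nearest neighbour over the range, and chance gives this in about 1 in 20 groups. In HS A, TRIM28 was at 229 TPM (165 to 172 in HS C, D and E), TRIM47 at 50.3 TPM (5.83 to 11.9), TRIM24 at 26.5 TPM (46.9 to 50.4) and TRIM32 at 9.17 TPM (21.1 to 21.5). TRIM27 was at 94.2 TPM in HS D (80.1 to 82.3 in the others), and TRIM7 at 3.54 TPM in HS E (1.79 to 1.97). TRIM25 was at 59.4 TPM in thermoneutral D (36.3 to 40.9 in the others) and TRIM38 at 53.8 TPM in thermoneutral E (35.9 to 40.3).

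HS B, which the comparison left out, lay above every thermoneutral library in 6 of the 7 genes called higher. It held 61.9 TPM of TRIM25, 39.96 TPM of TRIM4, 33.5 TPM of TRIM24, 17.97 TPM of TRIM35, 14.2 TPM of TRIM16 and 18.2 TPM of TRIM32. Over the 36 members it lay above every thermoneutral library in 15 and below every one in 14. The matching shares over all genes were not counted, so these HS B counts are not read as support for the calls.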

How the results depend on the processing

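TRIM47, TRIM16 and TRIM32 kept their calls under all 19 alternatives, TRIM52 under 17 of 18, TRIM35 under 16, TRIM24 under 15, TRIM4 under 14 and TRIM25 under 12 of 19. The count called higher, 7 as reported, was 11 with a pseudocount of 0.1, 2 with a pseudocount of 5, 3 with either scaling, and 6 to 11 with 1 library left out (11 without HS D). The count called lower, 1, was 2 with either scaling, 2 with HS B in and HS A out, and 1 to 2 with 1 library left out (2 without HS A). With a pseudocount of 5, the whole table held 1371 called genes in place of 2782. With the replicate block the counts were 7 and 1 again and 2717 in the table, and among members only the calls of TRIM25 and TRIM45 changed. Of the listed genes outside the family, the block ended only the call of ZC3HAV1. With HS B left out, thermoneutral B has no HS library of its letter, so the block difference rests on letters A, C, D and E. It therefore equals the difference without thermoneutral B (0.99 for TRIM25 and 0.93 for ZC3HAV1 in both fits). A larger pseudocount shrinks differences of low genes by its construction, and the cause of the remaining changes was not tested.

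The sign turned in 8 members, of which only TRIM8 had passed the adjusted p. After median-ratio scaling the log2 difference was -0.13 for TRIM38, -0.12 for TRIM2, -0.12 for TRIM41, -0.079 for TRIM68 and -0.16 for TRIM14. After quantile normalization it was -0.046 for TRIM38, -0.11 for TRIM2, -0.16 for TRIM41, -0.13 for TRIM68 and -0.21 for TRIM14. With all 10 libraries it was -0.075 for TRIM38, -0.041 for TRIM2 and -0.11 for TRIM14. With HS B in and HS A out it was -0.00066 for TRIM8, -0.13 for TRIM38, -0.18 for TRIM2, -0.060 for TRIM68 and -0.28 for TRIM14. TRIM6 was at 0.25 with a pseudocount of 0.1. With 1 library left out, TRIM14 ranged from -0.028 to 0.26, TRIM13 from -0.085 to 0.077 and TRIM6 from -0.46 to 0.27. TPM hold no read numbers, so no counting error could be given for low members such as TRIM7, TRIM29 and TRIM52.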
